A study of Mus musculus with 29 samples.

Results

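Gene expression in normal mammary fat was compared between formerly obese mice on a Mediterranean-style, calorie-restricted diet (MCR) and mice that remained obese (Obese). The comparison rests on 9 of 29 libraries, 4 MCR and 5 Obese, chosen by the treatment label, and on all 19387 of 30818 listed genes that passed a filter on low counts. All animals were C57BL/6N mice, labelled wild type. MCR and Obese mice had both become obese on a diet with 60% fat. MCR mice then lost weight under a 30% restriction of calories, whereas Obese mice stayed obese. The diet's composition and the restriction cannot be told apart in this comparison. Every group, the controls included, received E0771 mouse mammary cancer cells in gland 4 at 25 weeks, and gland 9, on the opposite side, was sequenced. The samples' titles use the word tumor and a label names E0771, while the tissue label is normal mammary tissue. The other groups are weight loss on a plain low-fat diet (LFD), on a low-fat diet with 30% restriction (LFCR) and on intermittent restriction (ICR), and lean mice on a control diet (Control), with 5 libraries each. Each library has its own animal number, and was taken as 1 mouse, so that p-values reflect the variation among these 9 and the other libraries. The sources used here give neither sex nor final age.

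White fat stores energy as triglyceride. Its fat cells take up fatty acids from blood and also make new ones from sugar through acetyl-CoA and malonyl-CoA, a pathway that insulin and carbohydrate feeding switch on. As fat cells enlarge in obesity they secrete more leptin, and macrophages gather around dying fat cells, take up their lipid and switch on lysosomal and matrix-degrading genes. The mammary fat pad also holds ducts of luminal and basal epithelium and a lymph node rich in B and T cells, so that a piece of the pad can include the node or miss it.

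The 9 libraries held 16403903 to 49026986 recovered reads, with a median of 39347372. MCR 2 held the fewest, and Obese 3 the next fewest with 17599285. Levels below are normalized counts, and differences are MCR minus Obese on the deposited log2 scale with their standard error (SE). A gene is called changed at a Benjamini-Hochberg adjusted p under 0.05 in limma, adjusted over all 19387 genes. Lymph node transcripts split the libraries. The mean log2 value of 13 B cell genes was 5.64, 11.9, 6.32 and 5.63 in MCR 1 to 4, and 5.85, 11.5, 11.9, 11.9 and 6.18 in Obese 1 to 5. MCR 1, 3 and 4 and Obese 1 and 5 are therefore called lymph-poor, together with 3 libraries of the other groups, 8 of 29 in all. Glycam1, a mucin of lymph node vessels, had 34.1, 11461, 52.8 and 1.52 normalized counts in MCR, against 12.7, 6241, 8796, 8892 and 50.9 in Obese, and divided the libraries in the same way. Its difference did not pass the test (-2.57 ± 1.93, adjusted p = 0.412, limma). Ccl21a, a chemokine of lymph node stroma whose reads can be shared with near-identical copies, did not pass either (-2.26 ± 1.61, adjusted p = 0.387, limma). The mean of 18 luminal epithelium genes was 10.4 to 10.6 in MCR and 9.69 to 10.3 in Obese, without overlap, and 15 skeletal muscle genes stood at 11.4 in Obese 2 against 5.28 to 8.19 in the other 8.

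**Figure D1:**
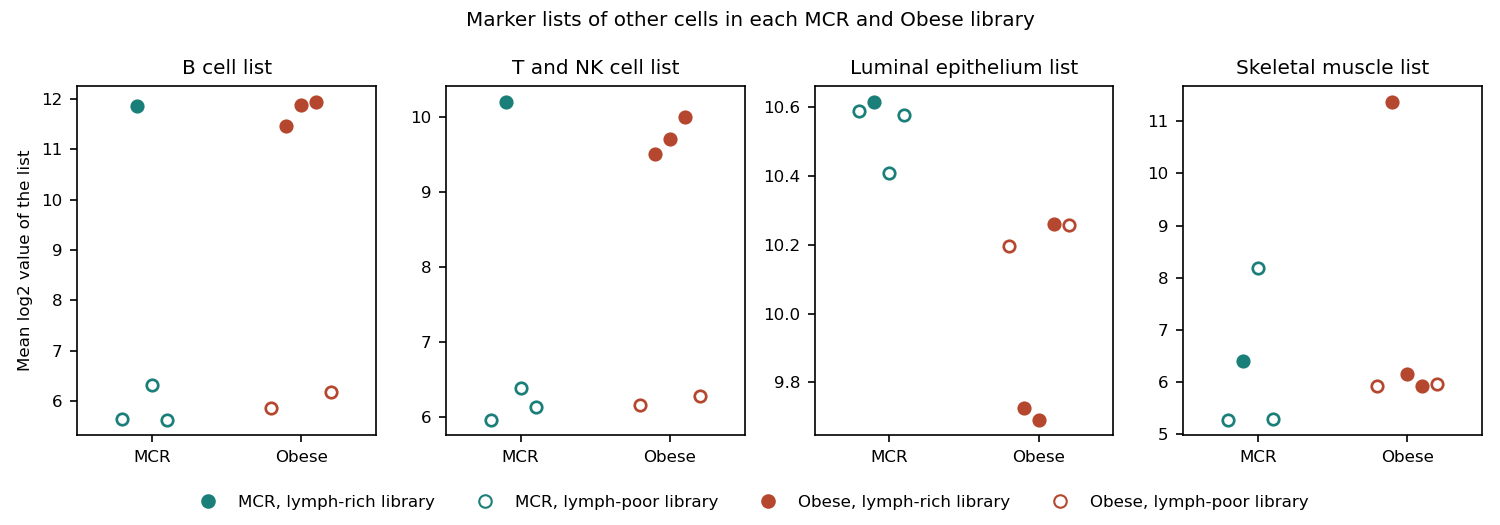
Mean log2 value of 4 marker lists (vertical axes, each with its own range) in the 4 MCR and 5 Obese libraries, with open points for lymph-poor libraries. B cell and T and NK cell means split both groups, the luminal mean is above 10.4 in every MCR library and at most 10.3 in every Obese one, and Obese 2 stands at 11.4 for skeletal muscle.

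Of 19387 genes, 2395 (12.4%) were called between MCR and Obese, 1292 higher in MCR (6.66%) and 1103 lower (5.69%). Genes higher in MCR made up 53.9% of the calls, and 66.5% after quantile normalization. That share was 40.5% with Glycam1 as a covariate and 36.4% in the 8 lymph-poor libraries. The shares of all genes are the background against which counts of list members stand below, beside a median difference over all genes of -0.04. All 45 lists were drawn up with earlier results of these data known, so their shares are descriptions and not independent evidence. The calls leaned on single libraries. They numbered 600 higher and 602 lower without MCR 1, 603 and 676 without MCR 3, 2130 and 2377 without MCR 2, and 786 and 777 without Obese 2. Among the 21 lymph-rich libraries, which hold only MCR 2 of the MCR group, 7 genes were higher and 94 lower, and the list counts below rest on fits that include the lymph-poor libraries. The genes named are the 15 largest rises, 14 of the 15 largest falls, markers given for the comparison and the members of gene lists with the smallest adjusted p. Most were thus chosen by their difference in these same libraries, so groups that do not overlap are no further evidence for them.

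Cyp2e1, a cytochrome P450 that oxidizes ethanol and small lipids, had the largest rise among called genes with a mean of 50 or more normalized counts. It had 24440, 32166, 84511 and 35494 normalized counts in MCR, against 210, 370, 1341, 1118 and 1497 in Obese. The lowest MCR library lay far above the highest Obese one, and the difference was 5.73 ± 0.58 (adjusted p = 3.43e-06, limma). Cyp2e1 lies on chromosome 7 from 140763739 to 140774987 on the plus strand (GENCODE vM21, GRCm38) and is annotated as protein-coding. In tissue RNA, a change in the number of cells of a type and a change in RNA per cell cannot be told apart, here and in all results below.

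Most fatty acid synthesis genes rose. Of 25 tested members 18 were higher in MCR (72.0%, against 6.66% of all genes), none was lower, and 24 had a positive difference, with a median of 1.48. Leaving out MCR 1 reduced the 18 to 9. Fasn, the fatty acid synthase that builds palmitate, had 787471, 245120, 518654 and 174806 normalized counts in MCR, against 5726, 5526, 15363, 9256 and 14415 in Obese. The groups were far apart, and MCR 1 was the highest (5.31 ± 0.86, adjusted p = 0.000309, limma).

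The steps on either side of Fasn moved with it. Acly, which splits citrate into cytosolic acetyl-CoA, had 145161, 34118, 68094 and 19772 normalized counts in MCR, against 4852 to 5778 in Obese (3.25 ± 0.75, adjusted p = 0.00554, limma). Acss2, which makes acetyl-CoA from acetate, rose by a log2 difference of 3.48 ± 0.71 (adjusted p = 0.00229, limma). Acaca, the carboxylase that makes malonyl-CoA, had 149494, 50585, 111416 and 48849 normalized counts in MCR, against 3216 to 5600 in Obese (4.27 ± 0.67, adjusted p = 0.000258, limma). Elovl6, the elongase that takes palmitate to stearate, reached 56326 in MCR 1 and 6829 in MCR 4, against 669 to 1071 in Obese (4.61 ± 0.97, adjusted p = 0.00308, limma). In all these genes MCR 1 was the highest library and MCR 4 the lowest, and the SD within MCR was larger than that within Obese.

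Other members bear on supply and control of the pathway. Thrsp, a nuclear and cytosolic regulator of lipid synthesis also called Spot14, had 46360, 15672, 30313 and 12132 normalized counts in MCR, against 840, 458, 1134, 1328 and 2100 in Obese (4.41 ± 0.74, adjusted p = 0.000462, limma). Tkt, the transketolase of the pentose phosphate pathway, had 30980 to 86248 in MCR, against 5230 to 8997 in Obese (2.82 ± 0.54, adjusted p = 0.00144, limma). Neither gene overlapped between the groups.

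Because these genes moved together, their promoters were searched for 4 sequence motifs of known lipogenic regulators. RefSeq promoters of 300 bases (GRCm38.p6) were found for 17 of the 18 called genes, 21 promoters in all, and motifs were counted on either strand. CCAAT, the letters read by the factor NF-Y, was in 13 of 21 promoters (61.9%) and in 37.4% of all 32851. GGGCGG, the letters read by Sp1, was in 12 (57.1%) and in 35.7% of all. CACGTG, an E-box, was in 3 (14.3%) and in 7.15% of all, and TCACCCCAC, a sterol response element, was in 0 of 21 and 0.551% of all. Motif presence is a description of these windows only. The promoters of Fasn and Thrsp are shown because each is among the largest rises and holds CCAAT more than once, with CCAAT and its complement ATTGG in capitals; in Fasn the last pair overlaps.
Fasn (chr11:120824498-120824797, minus strand): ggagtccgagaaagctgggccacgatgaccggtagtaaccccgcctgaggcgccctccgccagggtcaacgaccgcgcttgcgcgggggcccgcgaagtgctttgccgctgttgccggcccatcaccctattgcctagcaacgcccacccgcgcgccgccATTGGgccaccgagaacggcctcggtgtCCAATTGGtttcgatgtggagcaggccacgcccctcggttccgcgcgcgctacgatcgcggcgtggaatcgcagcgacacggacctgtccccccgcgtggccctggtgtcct
Thrsp (chr7:97417501-97417800, minus strand): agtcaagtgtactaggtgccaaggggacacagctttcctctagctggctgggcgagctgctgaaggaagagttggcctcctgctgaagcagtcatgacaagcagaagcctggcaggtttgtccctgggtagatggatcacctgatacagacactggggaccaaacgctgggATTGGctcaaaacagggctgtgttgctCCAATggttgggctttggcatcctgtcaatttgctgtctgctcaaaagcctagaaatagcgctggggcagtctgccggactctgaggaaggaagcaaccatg
The Fasn window holds 3 such motifs, 1 as CCAAT and 2 as ATTGG, and the Thrsp window holds 2. The Elovl6 and Acaca windows held 0 of the 4 motifs. The start site of the Acaca window lies 65766 bases inside the gene as annotated by GENCODE vM21, so it is not at the gene's first start. Of the 21 windows 8 have a start site over 1000 bases inside their gene.

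**Figure D2:**
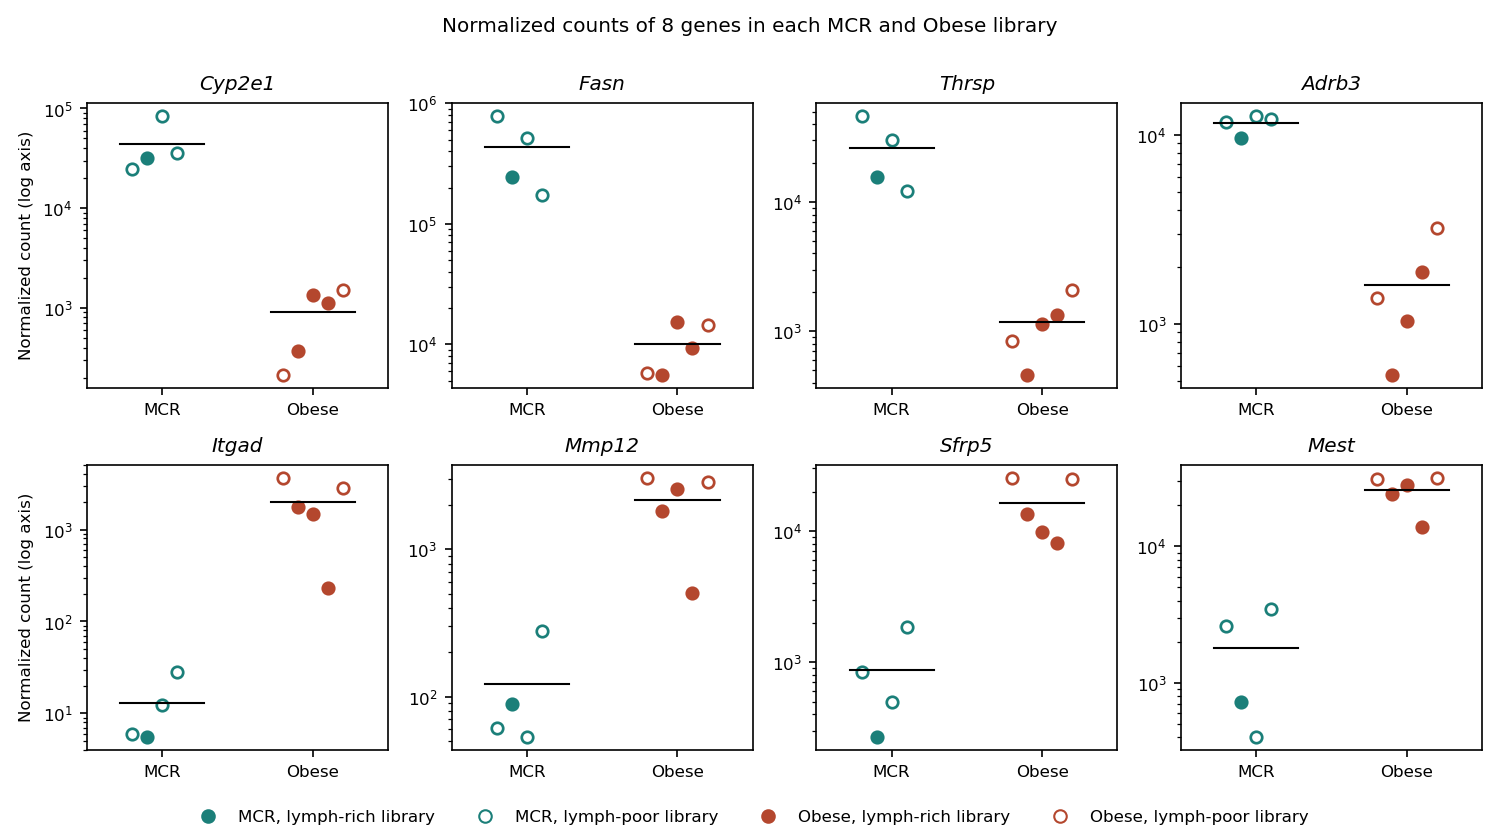
Normalized counts (log axis) of 4 genes that rose and 4 that fell in the 4 MCR and 5 Obese libraries, with the group mean as a line and open points for lymph-poor libraries. In all 8 genes the groups do not overlap, whether a library is lymph-rich or lymph-poor; Obese 4 is the lowest Obese library for Itgad, Mmp12, Sfrp5 and Mest.

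Sugar entry genes rose in part. Of 20 members 6 were higher (30.0%) and none lower, and without MCR 1 the count was 2, without MCR 3 or Obese 2 it was 3, and without MCR 2 it was 10. Slc2a5, the fructose transporter GLUT5, had 1505, 281, 494 and 108 normalized counts in MCR, against 1.71 to 9.41 in Obese (4.14 ± 1.00, adjusted p = 0.00766, limma). Its call was lost with voom on the recovered reads. Slc2a4, the insulin-responsive glucose transporter GLUT4, had 13658, 4399, 10534 and 7933 in MCR, against 1603 to 4110 in Obese (1.71 ± 0.39, adjusted p = 0.00487, limma). The lowest MCR library of Slc2a4 was only slightly above the highest Obese one.

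Genes that join fatty acids to glycerol rose in part. Of 15 triglyceride assembly genes 6 were higher (40.0%) and none lower, with 1 left without MCR 1 and 3 without MCR 3. Mogat1, a monoacylglycerol acyltransferase, had 297 to 549 normalized counts in MCR, against 75.5 to 162 in Obese (1.54 ± 0.32, adjusted p = 0.00255, limma). Agpat2, a later acyltransferase of the pathway, had 8803 to 28259 in MCR, against 1755 to 5134 in Obese (2.23 ± 0.55, adjusted p = 0.00873, limma), and missed the threshold without MCR 1 (adjusted p = 0.0523, limma). Of 24 cholesterol synthesis genes 7 rose (29.2%) and none fell. That count was 2 without MCR 1 or MCR 3, 4 without Obese 2 and 15 without MCR 2. Tm7sf2, a sterol reductase, was among them with 213 to 370 normalized counts in MCR, against 99.5 to 128 in Obese (1.09 ± 0.25, adjusted p = 0.00467, limma).

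Several transcripts known from liver rose. Of 11 liver-type and urinary protein genes tested 6 were higher (54.5%) and 1 lower, with 3 higher without MCR 3. Alb, serum albumin, had 4540, 1686, 4649 and 3327 normalized counts in MCR, against 510, 166, 239, 358 and 525 in Obese (3.22 ± 0.42, adjusted p = 3.76e-05, limma). The groups were apart in every library. Mup10, a major urinary protein that carries pheromones, had 1752, 2580, 10112 and 539 in MCR, against 14.8 to 179 in Obese (4.85 ± 1.15, adjusted p = 0.00637, limma). Mup18 had 278 to 6062 in MCR, against 12.0 to 111 in Obese (4.47 ± 1.11, adjusted p = 0.00865, limma), and its call was lost without MCR 3 (adjusted p = 0.0549, limma). Both Mup genes belong to a family of near-identical copies, and reads shared among copies make their separate values uncertain. The member that fell was Serpina1a (-0.83, adjusted p = 0.0102, limma), named after its value was seen. Cyp2f2, another cytochrome P450, outside the list, had 1844 to 2946 in MCR, against 111 to 379 in Obese (3.42 ± 0.45, adjusted p = 3.66e-05, limma).

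The remaining large rises were Acsm3, a mitochondrial medium-chain acyl-CoA synthetase, and Lrtm1, a transmembrane protein with leucine-rich repeats. Acsm3 had 511 to 1281 normalized counts in MCR, against 34.5 to 105 in Obese (3.33 ± 0.48, adjusted p = 0.000107, limma). Lrtm1 had 169 to 604 in MCR, against 5.23 to 13.3 in Obese (3.37 ± 0.48, adjusted p = 8.81e-05, limma).

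Markers of the mature fat cell did not move as a block. Of 22 members 9 were higher (40.9%), 1 was lower and 12 did not pass, and the 9 became 4 without MCR 1, 3 or 4 or Obese 2, 3 or 4. Adipoq, the hormone adiponectin, had 68801, 33002, 93337 and 67986 normalized counts in MCR, against 58948, 37384, 44549, 34606 and 77646 in Obese. These values overlapped widely (0.35 ± 0.30, adjusted p = 0.473, limma), and this defining marker of fat was at 33002 or more in all 9 libraries. Lep, the hormone leptin that reports fat mass to the brain, was the 1 member that fell. It had 24824, 7396, 15019 and 25886 in MCR, against 146334, 89864, 88661, 54354 and 143078 in Obese, without overlap (-2.58 ± 0.56, adjusted p = 0.00361, limma).

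Adrb3, Cfd and Retn carried the clearest rises of that list. Adrb3 encodes the beta-3 adrenergic receptor through which nerves stimulate lipolysis, and had 11652, 9596, 12616 and 12121 normalized counts in MCR, against 1363, 533, 1038, 1873 and 3226 in Obese (3.05 ± 0.37, adjusted p = 2.81e-05, limma). Its 4 MCR values lay close together. Cfd, the complement factor and adipokine adipsin, had 102706 to 222315 in MCR, against 17371 to 83909 in Obese (2.16 ± 0.39, adjusted p = 0.000826, limma). Retn, the fat cell hormone resistin, had 15456 to 38349 in MCR, against 3309 to 12566 in Obese (2.04 ± 0.38, adjusted p = 0.00109, limma).

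Most of the mitochondrial genes listed rose. Of 49 oxidative phosphorylation genes 44 were higher (89.8%) and none lower, all 49 differences were positive, and the median was 0.86. Of 27 genes of the citrate cycle and of pyruvate entry 22 were higher (81.5%) and none lower, with a median of 0.95. Without MCR 1 these counts were 26 and 12. Both lists share the 4 subunits of succinate dehydrogenase. Cs, the citrate synthase, had 28381, 14292, 26576 and 19724 normalized counts in MCR, against 9741, 6876, 8684, 8126 and 9861 in Obese (1.32 ± 0.25, adjusted p = 0.00109, limma). Suclg2, a subunit of succinyl-CoA ligase, had 2384 to 4014 in MCR, against 1477 to 1867 in Obese (0.96 ± 0.13, adjusted p = 8.68e-05, limma). Atp5c1, a subunit of ATP synthase, had 6781 to 10969 in MCR, against 4123 to 5437 in Obese (0.92 ± 0.15, adjusted p = 0.000465, limma). In each of these genes the lowest MCR library was MCR 2, the lymph-rich one with the fewest reads, and it still lay above every Obese library.

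The enzymes that break down branched-chain amino acids, a pathway that supplies fat cells with acetyl-CoA, mostly rose. Of 23 members 20 were higher (87.0%), with a median of 0.79, and the count was 9 without MCR 1 or MCR 3, 13 without Obese 2 and 9 in a fit of MCR and Obese alone. Bcat2, the mitochondrial transaminase that opens the pathway, had 4261, 2523, 6032 and 4182 normalized counts in MCR, against 1377, 1036, 1351, 1190 and 1826 in Obese (1.59 ± 0.26, adjusted p = 0.000324, limma). Ivd, the isovaleryl-CoA dehydrogenase of leucine breakdown, had 5597 to 11873 in MCR, against 2486 to 3805 in Obese (1.47 ± 0.23, adjusted p = 0.000278, limma). The 1 member that fell was Bcat1, the cytosolic transaminase (-1.31, adjusted p = 0.0263, limma), named after its value was seen.

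Fatty acid oxidation genes rose in part. Of 23 members 6 were higher (26.1%) and 1 lower, while 21 differences were positive, with a median of 0.54. The 6 became 14 without MCR 2 and 2 or 3 without MCR 1, 3 or 4 or Obese 2 or 4. Echs1, the enoyl-CoA hydratase, had 5203 to 11037 normalized counts in MCR, against 2212 to 3749 in Obese (1.48 ± 0.29, adjusted p = 0.00158, limma). Cpt1a, the carnitine palmitoyltransferase that admits long-chain fatty acids to mitochondria and is inhibited by malonyl-CoA, was the member that fell. It had 2140, 3840, 3361 and 3277 in MCR, against 6774, 6074, 6034, 5120 and 6210 in Obese, and the groups were apart (-0.96 ± 0.13, adjusted p = 8.06e-05, limma).

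Of 16 thermogenic fat cell genes 4 were higher (25.0%) and 1 lower, and the 4 became 1 without MCR 1 and 2 without MCR 3 or Obese 5. Ppargc1a, the coactivator PGC-1alpha that drives mitochondrial genes, had 1059, 434, 1059 and 1225 normalized counts in MCR, against 274, 165, 128, 114 and 173 in Obese (2.26 ± 0.30, adjusted p = 4.79e-05, limma). Cox8b, a cytochrome oxidase subunit of brown fat and muscle, had 494 to 795 in MCR, against 62.8 to 107 in Obese (2.46 ± 0.64, adjusted p = 0.0122, limma), and missed the threshold without MCR 1 (adjusted p = 0.0516, limma). Ucp1, the uncoupling protein that defines heat-producing fat, did not pass (-0.48, adjusted p = 0.832, limma) and is named for that role, with its value seen. Of 19 clock genes 4 rose (21.1%) and none fell, with 2 left without MCR 1 or MCR 4. Among them was Bhlhe40, a repressor of the clock, with 3222 to 6604 in MCR, against 1577 to 1905 in Obese (1.33 ± 0.25, adjusted p = 0.00132, limma).

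Some genes known to rise as white fat expands were lower in MCR. Of 14 members 6 fell (42.9%, against 5.69% of all genes) and none rose, and leaving out any single library gave 5 to 7. Sfrp5, a secreted Wnt inhibitor of fat cells, had 842, 266, 495 and 1854 normalized counts in MCR, against 25435, 13463, 9825, 8125 and 24935 in Obese (-4.38 ± 0.79, adjusted p = 0.000838, limma). Mest, an imprinted gene of growing fat cells, had 2599, 730, 400 and 3476 in MCR, against 31306, 24140, 28065, 13767 and 31645 in Obese (-4.24 ± 0.73, adjusted p = 0.000542, limma). Both genes were lower in each MCR library than in any Obese one. Trp53inp2, a regulator of autophagy and fat cell differentiation, had 3390 to 7928 in MCR, against 11145 to 20764 in Obese (-1.55 ± 0.27, adjusted p = 0.00061, limma).

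Of 15 imprinted growth genes, a list that holds Mest, 3 were lower (20%) and none higher, with a median of -0.09. With Glycam1 as a covariate, a measure of lymph node content taken up again below, 4 were lower and the median was -0.48. Peg10, a gene derived from a retrotransposon, had 593, 219, 896 and 1022 normalized counts in MCR, against 12752, 13254, 2483, 1017 and 9332 in Obese. Its difference of -3.10 ± 0.64 passed (adjusted p = 0.00256, limma), but Obese 4 lay within the MCR range, and the call was lost in a fit of MCR and Obese alone.

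Transcripts better known from nerve cells were among the largest falls. The list of 13, like the others, was drawn up with earlier results of these data known. Of its members 5 fell (38.5%, against 5.69% of all genes) and 8 did not pass, and 3 differences were positive. The median was -0.93, and -0.12 with Glycam1 as a covariate, so the list did not fall as a block. Cacna1e, a voltage-gated calcium channel, had 446, 1304, 317 and 1412 normalized counts in MCR, against 15032, 8426, 3571, 4409 and 10300 in Obese (-3.29 ± 0.46, adjusted p = 8.06e-05, limma). Gabrr2, a GABA receptor subunit, had 13.5 to 152 in MCR, against 406 to 1122 in Obese (-3.25 ± 0.50, adjusted p = 0.00022, limma). Cdkl4, a kinase, had 39.4 to 96.2 in MCR, against 371 to 1445 in Obese (-3.13 ± 0.45, adjusted p = 9.95e-05, limma). All 3 were well apart between the groups. Unc79, part of a sodium leak channel, had 29.2 to 126 in MCR, against 339 to 919 in Obese (-2.90 ± 0.42, adjusted p = 0.000118, limma). Tph2, the serotonin-forming hydroxylase of neurons, had 1.82 to 13.5 in MCR, against 41.1 to 657 in Obese, and its fall passed the test (adjusted p = 8.95e-05, limma). Lipf, a lipase best known from the stomach, had 2.56, 1.82, 8.29 and 2.27 in MCR, against 216, 317, 311, 38.8 and 173 in Obese (-3.21 ± 0.38, adjusted p = 1.9e-05, limma). None of these 6 genes overlapped between the groups, which is likely for genes chosen as called in these same libraries. Tph2 and Lipf were below 14 normalized counts in every MCR library.

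**Figure D3:**
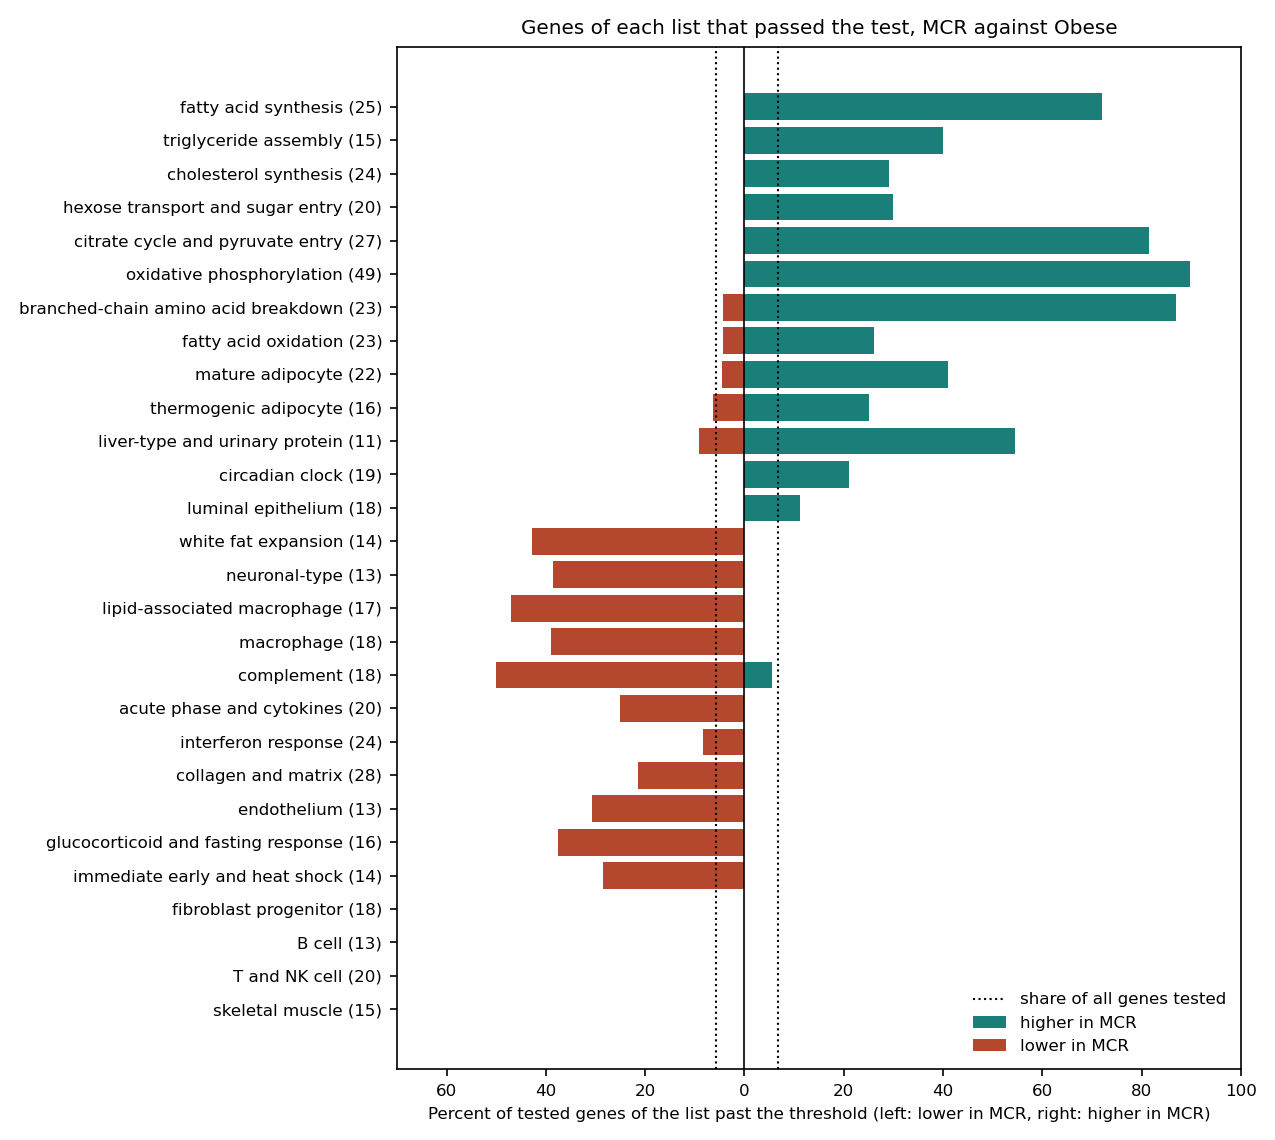
Percent of the tested genes of each list (number tested in brackets) that passed the test, to the right where higher in MCR and to the left where lower, with dotted lines at the shares over all genes (6.66% higher, 5.69% lower). Mitochondrial, branched-chain and fatty acid synthesis lists reach 72.0% or more on the right; lipid-associated macrophage and complement lists reach 47.1% and 50% on the left.

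Several macrophage transcripts were lower in MCR. Of 17 genes of lipid-associated macrophages, the cells that engulf lipid around fat cells, 8 fell (47.1%) and none rose, with 7 or 8 when any single library was left out. Itgad, the CD11d integrin subunit, had 5.97, 5.47, 12.4 and 28.0 normalized counts in MCR, against 3648, 1778, 1474, 234 and 2801 in Obese. Obese 4 was the lowest Obese library and still lay well above every MCR value (-5.51 ± 0.54, adjusted p = 3.43e-06, limma). Mmp12, the macrophage elastase, had 61.4, 89.4, 52.8 and 281 in MCR, against 3060, 1822, 2586, 503 and 2877 in Obese (-3.92 ± 0.50, adjusted p = 3.66e-05, limma). Atp6v0d2, a proton pump subunit of osteoclasts and macrophages, had 43.5 to 111 in MCR, against 149 to 1394 in Obese (-3.16 ± 0.51, adjusted p = 0.000295, limma). Lipa, the lysosomal acid lipase, had 2094 to 2904 in MCR, against 2902 to 5967 in Obese (-0.92 ± 0.16, adjusted p = 0.000467, limma).

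Of 18 general macrophage markers 7 fell (38.9%) and none rose. All 18 differences were negative with a median of -0.76, and 4 fell without MCR 1. Adgre1, the antigen F4/80, had 575, 536, 960 and 909 normalized counts in MCR, against 2538, 2115, 1871, 886 and 2691 in Obese (-1.36 ± 0.29, adjusted p = 0.00309, limma). Only Obese 4 lay within the MCR range. Itgam, the CD11b integrin subunit, had 496 to 941 in MCR, against 1399 to 2611 in Obese (-1.38 ± 0.24, adjusted p = 0.000525, limma). Cd68, a lysosomal glycoprotein, had 634 to 1314 in MCR, against 1513 to 3594 in Obese (-1.54 ± 0.29, adjusted p = 0.00104, limma). Mrc2, a collagen uptake receptor of macrophages and fibroblasts, had 389 to 1194 in MCR, against 2440 to 8853 in Obese (-2.92 ± 0.38, adjusted p = 3.66e-05, limma). Of 23 genes of the lysosomal proton pump and cathepsins 7 fell (30.4%), with 3 left without MCR 1 or Obese 5 and 4 without Obese 2, and the list's median was -0.09.

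Inflammatory signals fell in part. Of 20 cytokine and acute phase genes 5 were lower (25.0%), with 2 or 3 left without MCR 1 or 3 or Obese 1, 2 or 3. Saa3, an acute phase amyloid protein, had 0, 0, 5.18 and 11.4 normalized counts in MCR, against 474, 88.5, 42.8, 14.2 and 356 in Obese (-2.83 ± 0.50, adjusted p = 0.000717, limma). The call was lost in a fit of MCR and Obese alone. Il1rn, the interleukin 1 receptor antagonist, had 10.2 to 135 in MCR, against 71.0 to 775 in Obese (-2.71 ± 0.44, adjusted p = 0.000309, limma), with Obese 4 inside the MCR range. Of 18 complement genes 9 fell (50%) and 1, Cfd, rose, and the count of lower members was 3 without MCR 1 and 4 or 5 without MCR 2 or 4 or Obese 1, 2 or 5. It was 2 in a fit of MCR and Obese alone and 2 in the 8 lymph-poor libraries. Cfb, factor B of the alternative pathway, had 3944 to 5830 in MCR, against 7677 to 11307 in Obese (-0.84 ± 0.16, adjusted p = 0.0015, limma). Of 24 interferon response genes 2 fell (8.33%, against 5.69% of all genes), while all 24 differences were below 0. The count was 7 without MCR 2, 1 without MCR 1 and 4 with Glycam1 as a covariate or in the 8 lymph-poor libraries. Among those called was Oas2, an antiviral enzyme, with 450 to 587 in MCR, against 752 to 1389 in Obese (-1.07 ± 0.26, adjusted p = 0.00693, limma).

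Without a covariate for lymph node content, a minority of matrix and vessel genes fell. Of 28 collagen and matrix genes 6 fell (21.4%) and none rose, with a median of -0.60 and 2 positive differences. The count lower was 20 with Glycam1 as a covariate, where 10.5% of all genes were lower. It was 12 in the 8 lymph-poor libraries, where 6.08% of all genes were lower. Sparc, a collagen-binding glycoprotein, had 40424, 18007, 41626 and 37908 normalized counts in MCR, against 122309, 104009, 105819, 53553 and 145888 in Obese (-1.62 ± 0.27, adjusted p = 0.000464, limma). Every MCR library was below every Obese one. Col12a1, a fibril-associated collagen, had 341 to 629 in MCR, against 952 to 1355 in Obese (-1.23 ± 0.23, adjusted p = 0.00115, limma). Of 13 endothelium genes 4 fell (30.8%), with 3 or 4 when any single library was left out and 7 with Glycam1 as a covariate. Pecam1, the CD31 adhesion molecule of vessel walls, had 7859 to 9027 in MCR, against 11818 to 13249 in Obese (-0.61 ± 0.10, adjusted p = 0.000493, limma). Of 18 fibroblast progenitor genes 0 passed in either direction. Of 17 metalloproteinases and their inhibitors 1 rose (5.88%, against 6.66% of all genes) and 3 fell (17.6%, against 5.69%), with 0 higher without MCR 1, 3 or 4 or Obese 2 or 3.

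Some genes of hormone and stress response fell. Of 16 glucocorticoid and fasting genes 6 fell (37.5%) and none rose, with 3 left without MCR 1 or 3 or Obese 1, 2 or 3. The list of immediate early and heat shock transcripts, many of which react to the handling of tissue, had 4 of 14 members lower (28.6%), and 8 did without MCR 2. Fos, a growth-responsive transcription factor, had 632, 241, 264 and 587 normalized counts in MCR, against 4591, 993, 1363, 846 and 967 in Obese (-1.75 ± 0.42, adjusted p = 0.00658, limma). Obese 1 stood high, and the other Obese libraries were closer to MCR. The part of handling in this difference was not tested. Hspa5, the chaperone BiP, had 9129 to 10736 in MCR, against 11933 to 16909 in Obese (-0.47 ± 0.12, adjusted p = 0.0135, limma), and was 1 of 4 endoplasmic reticulum stress genes of 16 that fell (25.0%), of which 1 was left without MCR 3 and 2 without MCR 4 or Obese 5.

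Markers of the other cells in the pad showed few calls. Of 18 luminal epithelium genes 2 rose (11.1%, against 6.66% of all genes), although 17 of 18 differences were positive with a median of 0.62. The count was 1 without MCR 1, 3 or 4 or Obese 1, 2, 3 or 4. Esr1, the estrogen receptor, which fat and stromal cells also express, had 3278 to 7064 normalized counts in MCR, against 1613 to 3748 in Obese (1.23 ± 0.29, adjusted p = 0.00694, limma). Of 12 basal epithelium genes 1 fell (8.33%, against 5.69% of all genes). This was Oxtr, the oxytocin receptor, with 1669 to 4161 in MCR, against 5929 to 12653 in Obese (-1.77 ± 0.37, adjusted p = 0.00259, limma). Of 13 B cell genes 0 passed at a median of -2.22, of 20 T and NK cell genes 0 passed at a median of -1.13, and of 15 skeletal muscle genes 0 passed at a median of -0.56. The B and T cell values follow the split between lymph-rich and lymph-poor libraries given above, and with Glycam1 as a covariate their medians were -0.19 and 0.09.

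The comparison was therefore repeated with lymph node content taken into account. With the Glycam1 value of each library as a covariate, 1385 genes (7.14%) were higher in MCR and 2037 (10.5%) lower, and 2204 of the 2395 were among them. All 15 of the largest rises and the 14 falls were called with Glycam1, and also with Ccl21a, as the covariate. With Glycam1 the difference was 5.86 ± 0.59 for Cyp2e1, 5.52 ± 0.87 for Fasn, -5.69 ± 0.55 for Itgad and -5.02 ± 0.66 for Sfrp5. Fatty acid synthesis had 18 higher members, 17 of them shared with the 18 above, and 1 lower, oxidative phosphorylation had 43, the citrate cycle list 21 and branched-chain breakdown 17. On the other side, collagen and matrix genes went to 20 of 28 lower with Glycam1, against 6 without it, endothelium to 7 of 13 and white fat expansion to 8 of 14.

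Within the 8 lymph-poor libraries alone, which hold 3 MCR and 2 Obese, 673 genes (3.47%) were higher and 1178 (6.08%) lower, with 1301 shared with the 2395. Of the 15 largest rises 13 were called there, all but Mup10 and Mup18, and all 14 falls. Fasn differed by 5.51 ± 0.65 (adjusted p = 0.00735, limma) and Itgad by -6.50 ± 0.33 (adjusted p = 0.000796, limma). Oxidative phosphorylation had 38 of 49 higher and the citrate cycle list 22 of 27, while liver-type genes had 2 of 11 higher, and glucocorticoid and fasting genes had 2 of 16 lower. Among the 21 lymph-rich libraries, where MCR 2 stands alone and is assumed to vary like the other groups, 3 of the 15 rises and 8 of the 14 falls were called. Cyp2e1 (5.24 ± 0.91, adjusted p = 0.0241, limma), Adrb3 (3.21 ± 0.60, adjusted p = 0.0243, limma) and Itgad (-5.14 ± 0.89, adjusted p = 0.0241, limma) were among these. Fasn kept its size and missed the threshold (4.73 ± 1.47). List medians were smaller there than in all libraries. They were 0.54 against 0.86 for oxidative phosphorylation and 0.55 against 0.95 for the citrate cycle list. For fatty acid synthesis they were 1.05 against 1.48, and for branched-chain breakdown 0.38 against 0.79.

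**Figure D4:**
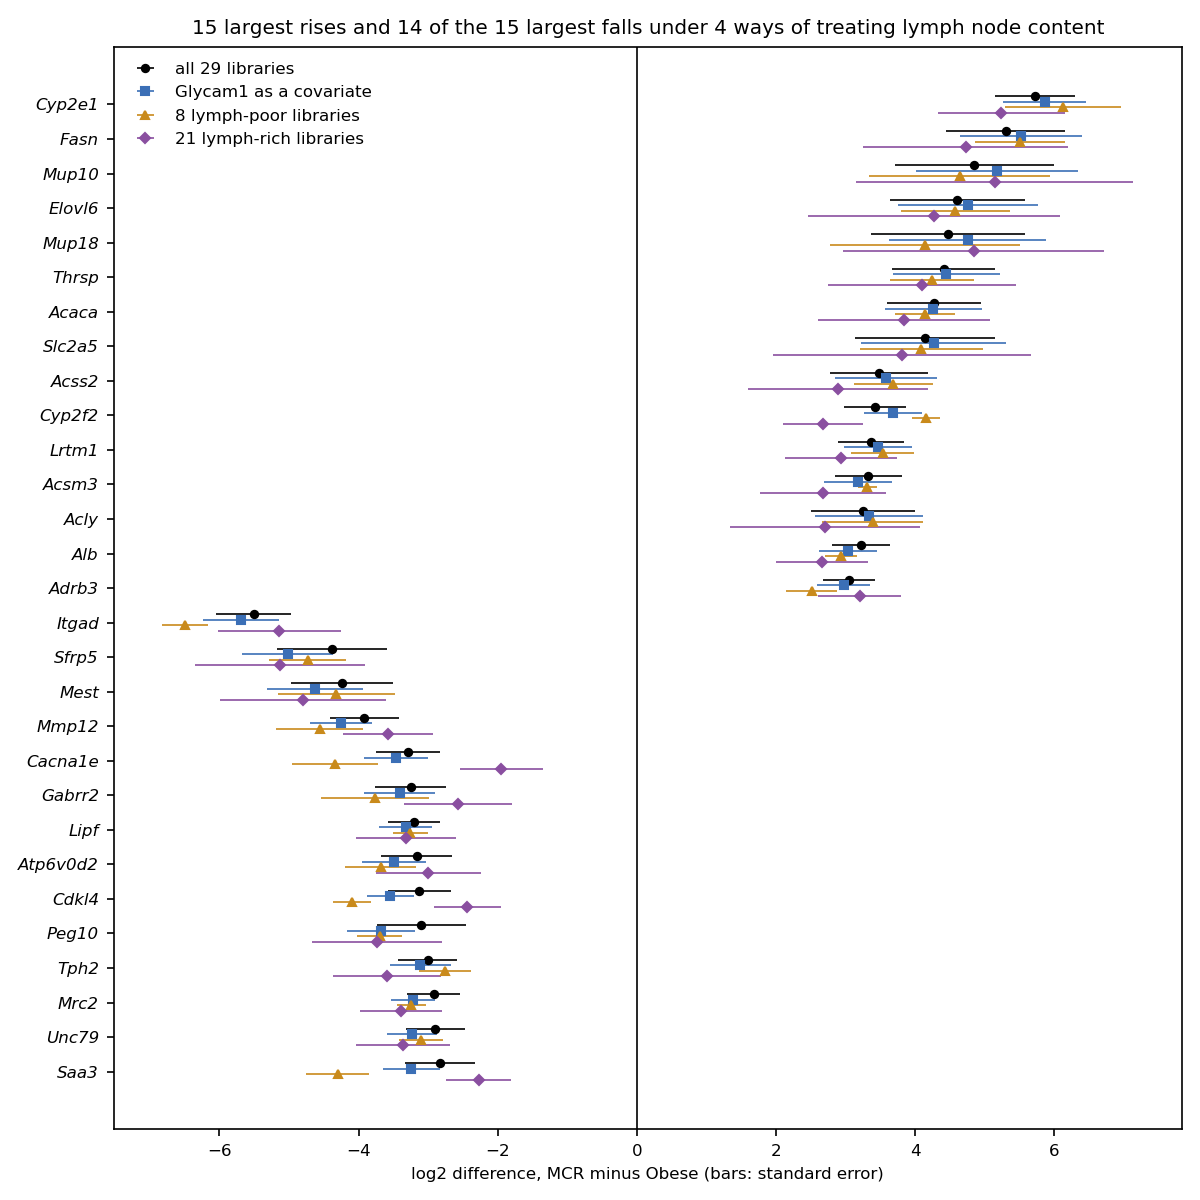
Difference between MCR and Obese on the log2 scale (horizontal axis, bars are standard errors) for the 15 largest rises and 14 of the 15 largest falls, from all 29 libraries, with Glycam1 as a covariate, in the 8 lymph-poor libraries and in the 21 lymph-rich ones. Every point keeps its side of 0, and the bars are longest for most genes in the lymph-rich libraries, where 1 MCR library remains.

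Sequencing lanes, read from the column headers, held at most 1 library of each group. In lane 6 both libraries were lymph-poor, in lane 4 both were lymph-rich, and in lane 3 MCR 3 was lymph-poor and Obese 4 lymph-rich. The 29 genes had their pooled direction in all 3 lanes. They were chosen for large differences in a fit that includes these libraries, so this was likely beforehand and is no separate support. For Fasn the difference was 7.10 in lane 6, 3.99 in lane 4 and 5.80 in lane 3, and for Itgad it was -7.15, -5.90 and -2.93 in the same order. Each lane holds 1 pair, so these values have no test of their own. With lane as a term in the fit all 29 were called, but only 1562 of all 2395 calls were kept. The luminal list mean, which did not overlap between the groups, was also used as a covariate. All 29 were called with it, and 1535 of the 2395 calls were kept.

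MCR was finally set against the other groups, to see which of these genes differed among the diets. These comparisons share the MCR libraries. Against LFD 57 genes were called (0.294%), against ICR 1 (0.00516%) and against LFCR 0 (0%). Against LFCR the count at an unadjusted p under 0.05 was 1028, and the smallest adjusted p was 0.0727 (limma). None of the 29 genes was called against LFD, LFCR or ICR. Lymph-poor libraries numbered 3 of 4 in MCR, 1 of 5 in LFD, 2 of 5 in LFCR and 0 of 5 in ICR. With Glycam1 as a covariate, added after the data were seen, 696 genes (3.59%) were called against LFD, 19 (0.098%) against LFCR and 1077 (5.56%) against ICR. Of the 29 genes Cyp2f2, Lrtm1 and Cdkl4 were then called against LFD, and none against LFCR or ICR. A missed threshold does not show that the diets act alike. Fasn averaged 431513 ± 279845 normalized counts in MCR (SD, n = 4), against 178297 ± 144798 in LFD, 746524 ± 231549 in LFCR, 138317 ± 102901 in ICR and 10057 ± 4666 in Obese (n = 5 each). Cyp2e1 averaged 44153 ± 27301 in MCR, against 21208 ± 12458 in LFD, 68020 ± 22565 in LFCR, 65440 ± 25194 in ICR and 907 ± 582 in Obese.

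Ppargc1a was among the 57 genes that differed from LFD. It averaged 944 ± 349 normalized counts in MCR (SD, n = 4), against 314 ± 48.8 in LFD (n = 5), a difference of 1.43 ± 0.30 (adjusted p = 0.0357, limma), and 1.06 ± 0.26 with Glycam1 as a covariate (adjusted p = 0.0267, limma). MCR 2, the lymph-rich library with the fewest reads, was the lowest of MCR. Cpt1a was 0.62 lower on the log2 scale in MCR than in LFD (adjusted p = 0.0367, limma), and Oas2 1.40 lower (adjusted p = 0.0172, limma). The 1 gene called against ICR was Pmepa1, a transmembrane inhibitor of TGF-beta signalling, which was 1.66 lower in MCR than in ICR (adjusted p = 0.027, limma) and is named after its value was seen. Cpt1a, Oas2 and Pmepa1 were also called with Glycam1 as a covariate.

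Against the lean Control group, whose 5 libraries were all lymph-rich, 5730 genes were called (29.6%), and 58 (0.299%) with Glycam1 as a covariate. Of the 15 rises 5 were called against Control and of the 14 falls 0, and with Glycam1 the counts were 0 and 0. Itgad averaged 13.0 ± 10.5 normalized counts in MCR, against 50.6 ± 40.6 in Control (-0.99, adjusted p = 0.160, limma), and Sfrp5 864 ± 701 in MCR, against 661 ± 567 in Control (0.52, adjusted p = 0.638, limma). Cyp2e1 was 1.74 higher in MCR than in Control (adjusted p = 0.0310, limma), and 2.07 higher with Glycam1, where it missed the threshold (adjusted p = 0.132, limma).

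**Figure D5:**
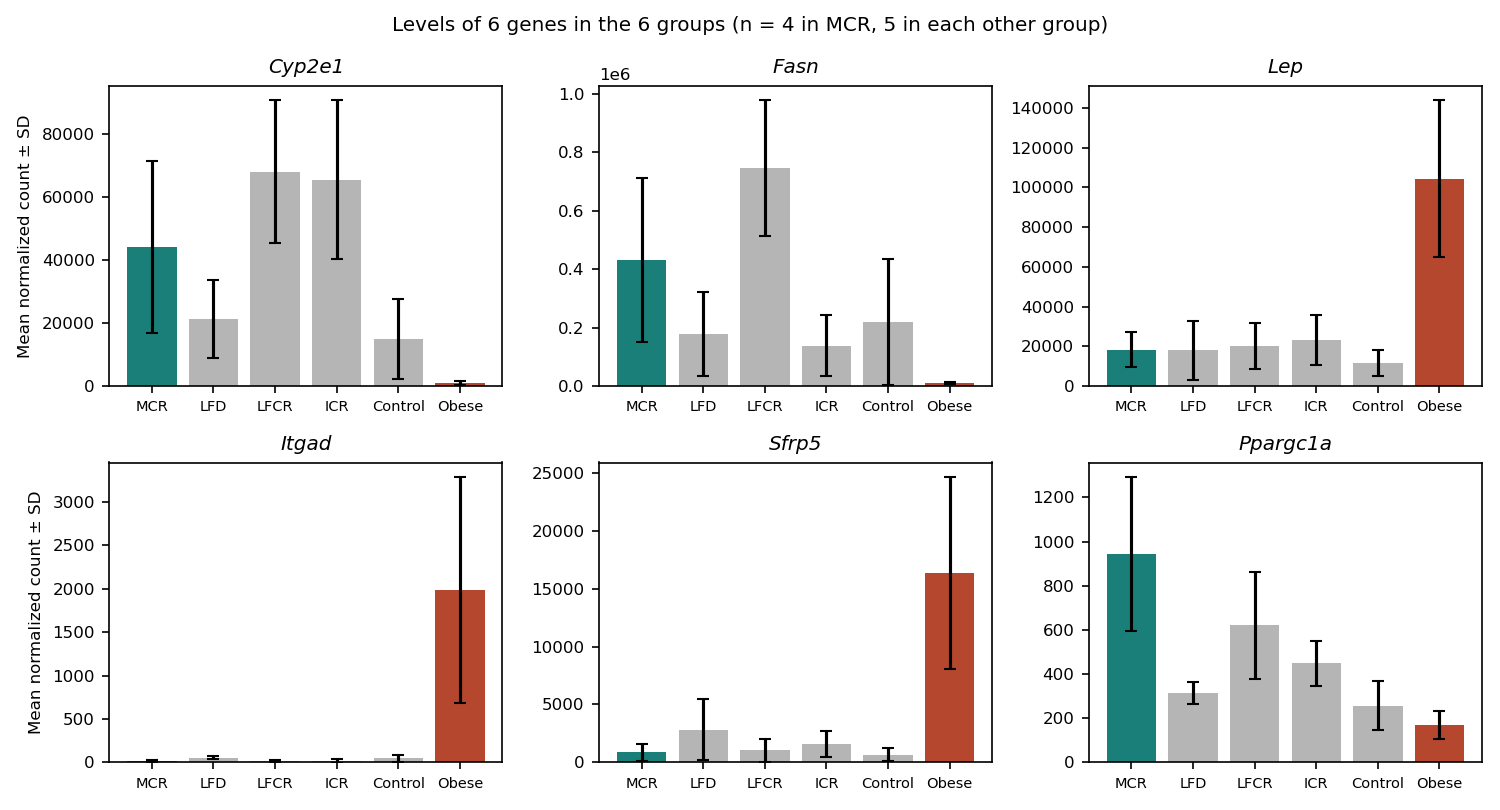
Mean normalized count (bars, with SD) of 6 genes in MCR (n = 4) and in LFD, LFCR, ICR, Control and Obese (n = 5 each). Obese stands lowest for Cyp2e1, Fasn and Ppargc1a and highest for Lep, Itgad and Sfrp5, and MCR has the highest mean of Ppargc1a.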

How the data were processed

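Total RNA of 29 libraries was sequenced as stranded paired reads of 76 bases, per the labels' protocols. The submitters' processing notes name DESeq2, HTSeq 0.5.3p9 and TopHat2 2.0.7, and the mm10 build, without the options used for counting. The authors deposited 1 table of log2 values with a shared lowest value of 3.75. Undoing a variance-stabilising transform, an inference from the values, gave whole reads for 100% of values (tolerance 0.01) in every library. Normalized counts printed here come from that step, and the transform compresses differences of low genes.

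Genes with a normalized count of 10 or more in at least 4 libraries (19387) were tested with limma 3.58.1 (R 4.3.3), with 1 mean per group over all 29 libraries, a mean-variance trend and robust moderation. The voom alternative used the recovered reads. Adjusted p-values are Benjamini-Hochberg over genes. In simulated data for this comparison, with 200 of 19387 genes changed, 87% of changes of 1.5 and 96% of changes of 3 (log2) were recovered, with 9 false calls. The changed genes all had a mean count of 50 or more. Genes were drawn independently, without a lymph node split shared among them, so these rates need not hold for the real libraries. Named genes are the 15 largest rises and falls among called genes with a mean count of 50 or more, given markers, fat and macrophage readouts, and up to 4 called genes per list; 3 of these genes are not reported here. The members and the 45 lists were chosen with earlier results of these data known. A mean of 9 (log2) over the B cell list separates lymph-poor from lymph-rich libraries. Positions are from GENCODE vM21 (GRCm38) and promoters from RefSeq (GRCm38.p6). No counting interval is given, since reads carry no molecular identifiers.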

Additional observations from a re-analysis of the deposited data

Results flagged for a closer look

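Of 246 groups of values (each named gene in MCR and in Obese) 16 held a library whose gap to its nearest neighbour took an unusually large share of the group's range on the log2 scale. Chance flags about 1 in 20 groups. The share is given for each.

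MCR 2, the lymph-rich MCR library with the fewest reads, was lowest for Ppargc1a (0.857), Sparc (0.888), Mmp15 (0.971) and Nr1d1 (0.893). Mmp15 is a membrane metalloproteinase and Nr1d1 a clock repressor. The same library was highest for Ccl21a (0.836). MCR 1 was highest for Cidea (0.929), a lipid droplet gene, with 1402 normalized counts against 365 to 402 in the other MCR libraries, and for Cox8b (0.941), and lowest for the chemokine Ccl3 (0.861). MCR 4 was highest for the complement gene C4b (0.83), the protease inhibitor Timp1 (0.89) and the stress factor Atf3 (0.885). MCR 3 was highest for Lipf (0.834).

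In Obese, Obese 4 was lowest for Atp6v0d2 (0.816), with 149 normalized counts against 941 to 1394 in the others, and for Cd68 (0.724). Obese 2 was lowest for Idh3b (0.796), a citrate cycle subunit, and Obese 1 highest for Fos (0.721).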

How the results depend on the processing

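Against 1292 higher and 1103 lower genes, array quality weights gave 4469 and 5391, a fit of MCR and Obese alone 699 and 436, and the lymph-rich libraries 7 and 94. The lymph-poor libraries gave 673 higher, the luminal covariate 838 and lane as a term 819. With Glycam1, Ccl21a or the B cell mean as a covariate 2037, 1998 and 2127 were lower, and 2323 with Glycam1 in a fit of MCR and Obese alone, added after the data were seen. Leaving out 1 library gave 600 to 2130 higher and 602 to 2377 lower. The cause of these shifts was not tested, apart from fewer libraries where some were left out. With Glycam1, added after the data were seen, 696, 19, 1077 and 58 genes were called against LFD, LFCR, ICR and Control, against 57, 0, 1 and 5730 without it. The other filters and scalings tried moved neither count by over 1.5 times.

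Of 120 named genes that were called, 12 were called under all 28 alternatives and 81 whichever library was left out. Leaving out the lymph-poor libraries ended 105 calls, and the fit of MCR and Obese alone ended 35. No called gene changed direction. Genes that were not called turned: Adipoq to -0.23 in the lymph-rich libraries, Ccl21a to 0.086 there and to 0.019 with the B cell mean, and Glycam1 to 0.54 there, 0.19 with the B cell mean and 0.059 with Ccl21a. No paired analysis was possible because the labels give no replicate number shared between MCR and Obese; this concerns replicate numbers, and lanes shared by MCR and Obese libraries entered as a term, with 819 higher and 771 lower. Lane 4 held the fewest reads, and without it 1425 genes were higher and 1399 lower.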

Other observations

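Among lists not described above, insulin and IGF signalling, mast cell, milk protein and red blood cell genes had 0 called members of 21, 10, 7 and 7 tested. The shares below stand against 6.66% of all genes higher and 5.69% lower, and without MCR 2 the calls over all genes were 2130 and 2377. Of 19 lipolysis and lipid droplet genes 3 were higher in MCR (15.8%) and 1 lower (5.26%). The count of higher members was 1 without MCR 1, 3 or 4 or Obese 2 and 6 without MCR 2. Hilpda, a lipid droplet protein that inhibits lipolysis, had 171 to 297 normalized counts in MCR, against 274 to 750 in Obese (-0.97 ± 0.20, adjusted p = 0.00282, limma). Of 15 fatty acid uptake genes 1 was higher (6.67%, close to the share of all genes) and 2 were lower (13.3%). The count higher was 5 without MCR 2, 0 without MCR 1, 3 or 4 or Obese 2 or 4, and 2 without Obese 1. Acsl5, an acyl-CoA synthetase, had 2333 to 2686 in MCR, against 3035 to 3747 in Obese (-0.39 ± 0.09, adjusted p = 0.00449, limma). Of 23 cell division genes 1 was lower (4.35%), and all 23 differences were below 0 with a median of -0.72. The count lower was 8 without MCR 2, 5 without MCR 4, and 0 without MCR 1 or 3 or Obese 2, 3, 4 or 5. Of 12 smooth muscle and pericyte genes 1 was lower (8.33%). Of 11 neutrophil genes 1 was lower (9.09%), with 0 to 4 when a single library was left out. Of 8 keratinocyte genes 1 was higher and 1 lower (12.5% each), and of 10 Schwann cell genes 1 was higher and 1 lower (10% each). Of 11 lymph node stroma and vessel genes 0 passed.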
